A study of Mus musculus with 8 samples.

Results

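The 48 proteasome genes examined here are the subunits, activators and assembly factors that carry a Psm symbol in RNA-seq of mouse heart ventricles. They were chosen by name: the 49 symbols that start with Psm, less Psmc3ip, which encodes a recombination factor, gave 48 of the 23205 symbols in the table. They comprised 16 genes of the 20S core (Psma and Psmb), 3 inducible immunoproteasome subunits (Psmb8, Psmb9 and Psmb10), 20 genes of the 19S regulator (Psmc and Psmd), 4 activators (Psme), 4 assembly chaperones (Psmg) and Psmf1, which encodes the proteasome inhibitor PI31. The 4 Med1cKO libraries came from ventricles of mice with a cardiac knockout of Med1, a subunit of the Mediator complex that links transcription factors to RNA polymerase. The 4 WT libraries came from ventricles of Med1fl/fl mice, in which Med1 is floxed but intact. All animals were on the C57BL/6 background and at postnatal day 21. Neither the promoter that drives the deletion nor whether each library is a separate animal is stated, so the p-values measure the spread between libraries only.

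The proteasome degrades proteins tagged with ubiquitin and is the main route of regulated protein breakdown in heart muscle. Its 20S core is a barrel of outer alpha rings and inner beta rings, in which Psmb6, Psmb7 and Psmb5 supply the proteolytic sites, and the 19S regulator binds ubiquitin, removes it and unfolds the substrate with a ring of ATPases. Interferon replaces the catalytic subunits with Psmb9, Psmb10 and Psmb8, which gives the immunoproteasome that makes peptides for MHC class I. The transcription factor encoded by Nfe2l1 raises proteasome genes together when proteasome activity falls short.

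Med1 read 7.80, 8.37, 7.89 and 9.15 FPKM (fragments scaled to transcript length and library size) in Med1cKO libraries 1 to 4, against 15.5, 16.1, 10.6 and 16.8 FPKM in WT libraries 1 to 4. The groups did not overlap (exact two-sided permutation p = 0.0286, the smallest that 4 against 4 allows), and Med1 averaged 56.3% of its WT level. Total FPKM per library ran from 481719 to 502629 in Med1cKO and from 507484 to 536174 in WT, and from 11757 to 12273 genes in Med1cKO libraries and from 11526 to 11734 in WT libraries reached 1 FPKM. The median gene was higher in Med1cKO by 0.25 on the log2 scale as deposited, and this shift fell to 0.01 after each library was rescaled by the median of its gene ratios. Cardiomyocyte markers were plentiful in every library but differed between the groups: their sum over 10 genes was 17902 to 27621 FPKM in Med1cKO libraries and 53666 to 59475 FPKM in WT libraries. In limma, 9 of these 10 markers fell and 1 rose, while 7 of 10 fibroblast markers rose and none fell (sums of 1492 to 2636 FPKM in Med1cKO and 1076 to 1407 FPKM in WT). Pericyte and smooth muscle markers had 4 of 10 higher and 4 lower, with sums of 809 to 1074 FPKM in Med1cKO and 438 to 612 FPKM in WT. Much of the difference in these sums came from Cnn1, a smooth muscle gene, at 268 to 404 FPKM in Med1cKO and 1.11 to 1.48 FPKM in WT. The 4 lower were Rgs5, Kcnj8, Abcc9 and Vtn. Endothelial markers had 3 of 10 higher and 2 lower, with sums of 427 to 595 FPKM in Med1cKO and 389 to 495 FPKM in WT. Over all genes tested, 44.9% were higher and 16.4% lower. After rescaling, 1 cardiomyocyte marker was higher and 9 lower, and 5 fibroblast markers were higher and 0 lower. Pericyte and smooth muscle markers then had 3 higher and 4 lower, and endothelial markers 1 higher and 4 lower, against 27.0% and 26.9% of all genes. In whole ventricle, fewer cells of a type and less RNA per cell cannot be told apart, and the part of these differences in the proteasome results was not tested.

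A pair of WT libraries and 1 Med1cKO library stood apart from the rest. WT library 3 held transcripts typical of thymus: 13 of 13 T cell and thymocyte genes and 4 of 4 thymic epithelium genes, lists drawn up after the values were seen and with Psmb11 among the second, were highest there. Their sums were 81.0 and 30.0 FPKM in WT library 3, and at most 3.3 and 1.78 FPKM in any other library. WT library 2 was high in interferon-inducible genes, with Igtp, an interferon-induced GTPase, at 95.1 FPKM against 8.67 to 19 FPKM in the other WT libraries and 5.05 to 8.15 FPKM in Med1cKO libraries. Med1cKO library 4 was high in erythroid markers, which summed to 10357 FPKM there and to 1206 to 2739 FPKM in the other Med1cKO libraries, against 1358 to 7053 FPKM in WT libraries. It also held the most Tagln, a smooth muscle gene (333 FPKM, against 96.3 to 101 FPKM in the other Med1cKO libraries), and Itgam, a myeloid gene (10.1 FPKM, against 1.43 to 2.46 FPKM). Without Med1cKO library 4, 35 members were higher and 5 lower. Without WT libraries 2 and 3, an alternative chosen after seeing the data, 34 members were higher and 3 lower, against 36 and 5 with all 8 libraries. Leaving out WT library 2 alone gave 36 and 5, and leaving out WT library 3 alone gave 34 and 5. With all 8 libraries, 44.9% of all genes tested were higher and 16.4% lower. Shares over all genes without these libraries are not given, so these counts show only how steady the member calls were.

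The core particle and its regulator were higher in Med1cKO ventricles almost throughout, while the inducible subunit gene Psmb10, the activator genes Psme1 and Psme2 and the chaperone genes Psmg1 and Psmg2 were lower. Of the 48 genes, 46 reached a mean of 1 FPKM and were tested. In limma on log2(FPKM + 1), with p adjusted over 11974 genes and called at 0.05, 36 rose, 5 fell and 5 were not called. Over all genes tested, 44.9% rose and 16.4% fell. All 14 tested 20S genes and 19 of 20 in the 19S regulator rose. The median log2 change of the 46 was 0.53, against 0.25 over all genes. In 36 members the 4 Med1cKO libraries lay wholly above the 4 WT libraries and in 5 wholly below, as they did in 41.7% and 15.3% of all genes.

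The size of these differences depended on the scaling of the libraries. After rescaling, 26 members were higher and 7 lower, with a median log2 change of 0.25, against 27.0% higher and 26.9% lower over all genes and a median of 0.01. After quantile normalization, 29 members were higher and 7 lower, against 28.7% and 25.6% of all genes. After rescaling, in the 20S core 9 of 14 rose and none fell, and in the 19S regulator 15 of 20 rose and none fell. In the authors' deposited table of the same contrast, whose values were scaled by the authors, 16 of the 46 were higher and 8 lower at a q-value under 0.05, against 23.1% and 22.8% of the 12539 genes tested there. That table had 6 of 14 20S genes and 9 of 20 19S genes higher and none of either lower.

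**Figure D1:**
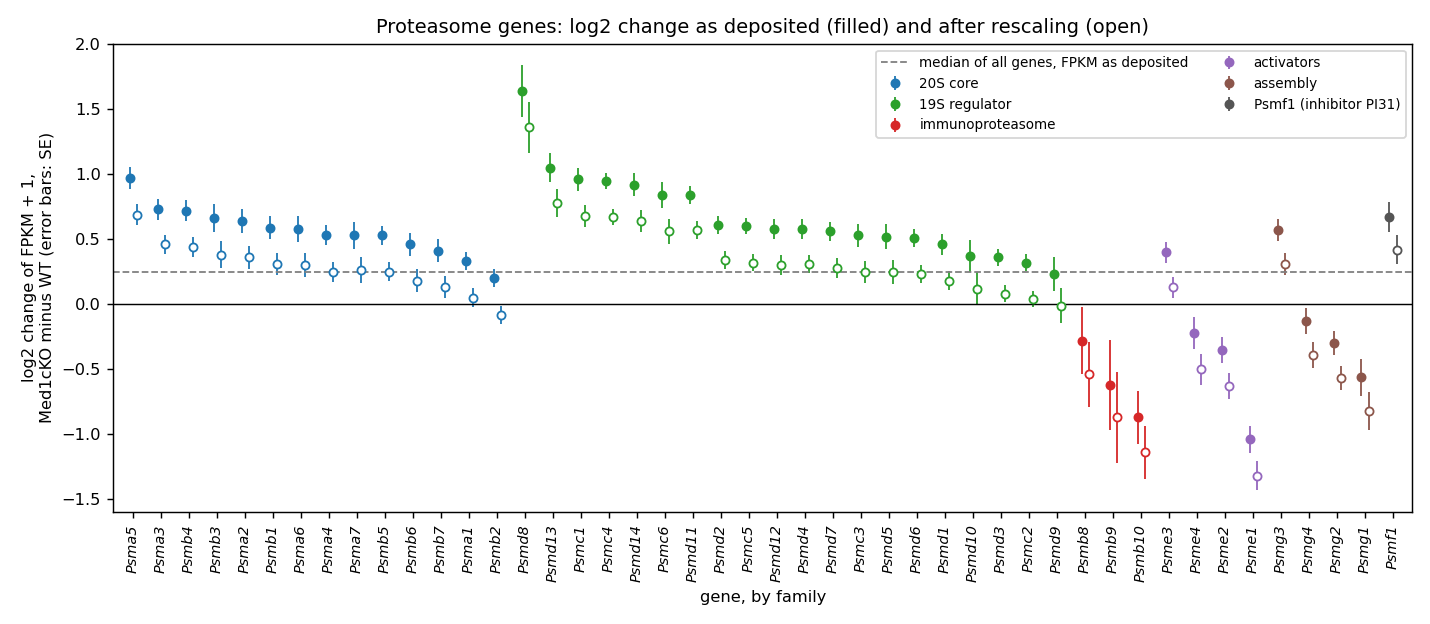
Log2 change in FPKM + 1, Med1cKO over WT, of the 46 proteasome genes tested, grouped by family, as deposited (filled, with a bar of 1 SE from limma) and after rescaling (open), with a dashed line at the median of all genes as deposited (0.25). Every filled point of a 20S or 19S gene lies above 0, led by Psmd8 at 1.64, and Psme1 is the lowest at -1.04.

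Promoter windows from RefSeq (GRCm38.p6, from 250 bases before to 50 after the start) were matched for 40 of the 48 genes, giving 43 windows. Those of 6 genes are printed because they stand for the directions seen: Psmb5 and Psmb6 (constitutive catalytic subunits, higher), Psmd12 and Psmd8 (19S lid, higher, Psmd8 by the most), Psme1 (lower by the most) and Psmb9 (inducible). Capitals mark matches, on either strand, to TGACNNNGC (the core of the antioxidant response element that Nfe2l1 and its partners bind), GAAA repeated after a spacer of 2 bases (an interferon response element), CCAAT (an NF-Y box) or CCGGAAG (an ETS site). The windows are Psmb5 at chr14:54617946-54618245 (minus strand), Psmb6 at chr11:70525107-70525406 (plus), Psmd12 at chr11:107479278-107479577 (plus), Psmd8 at chr7:29180624-29180923 (minus), Psme1 at chr14:55578244-55578543 (plus) and Psmb9 at chr17:34187281-34187580 (minus).
Psmb5: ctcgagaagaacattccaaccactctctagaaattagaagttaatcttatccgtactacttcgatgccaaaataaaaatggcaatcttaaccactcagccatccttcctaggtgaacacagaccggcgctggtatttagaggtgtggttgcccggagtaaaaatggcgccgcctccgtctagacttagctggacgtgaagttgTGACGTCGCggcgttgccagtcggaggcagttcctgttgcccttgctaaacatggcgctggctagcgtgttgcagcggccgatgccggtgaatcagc
Psmb6: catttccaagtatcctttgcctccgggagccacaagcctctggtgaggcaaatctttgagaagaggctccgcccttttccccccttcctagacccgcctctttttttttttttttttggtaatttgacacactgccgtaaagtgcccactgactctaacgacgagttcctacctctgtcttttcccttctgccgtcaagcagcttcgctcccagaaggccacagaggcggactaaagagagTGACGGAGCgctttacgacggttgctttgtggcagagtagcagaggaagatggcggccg
Psmd12: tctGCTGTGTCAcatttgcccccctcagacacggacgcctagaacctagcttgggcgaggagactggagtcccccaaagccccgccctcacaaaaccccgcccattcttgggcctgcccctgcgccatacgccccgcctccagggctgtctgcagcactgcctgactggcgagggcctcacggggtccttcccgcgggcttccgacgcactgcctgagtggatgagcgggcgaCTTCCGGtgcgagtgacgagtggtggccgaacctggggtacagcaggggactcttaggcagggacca
Psmd8: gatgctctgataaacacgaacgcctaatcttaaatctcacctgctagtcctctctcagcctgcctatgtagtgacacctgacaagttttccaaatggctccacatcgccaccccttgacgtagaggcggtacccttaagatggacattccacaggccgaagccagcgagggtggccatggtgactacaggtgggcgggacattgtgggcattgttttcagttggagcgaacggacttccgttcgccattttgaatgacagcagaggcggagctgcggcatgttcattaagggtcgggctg
Psme1: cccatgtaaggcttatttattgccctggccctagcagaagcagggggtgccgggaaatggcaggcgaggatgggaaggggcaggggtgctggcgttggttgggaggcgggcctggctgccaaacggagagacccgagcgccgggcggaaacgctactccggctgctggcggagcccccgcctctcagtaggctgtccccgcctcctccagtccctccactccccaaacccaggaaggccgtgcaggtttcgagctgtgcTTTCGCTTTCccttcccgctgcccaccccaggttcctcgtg
Psmb9: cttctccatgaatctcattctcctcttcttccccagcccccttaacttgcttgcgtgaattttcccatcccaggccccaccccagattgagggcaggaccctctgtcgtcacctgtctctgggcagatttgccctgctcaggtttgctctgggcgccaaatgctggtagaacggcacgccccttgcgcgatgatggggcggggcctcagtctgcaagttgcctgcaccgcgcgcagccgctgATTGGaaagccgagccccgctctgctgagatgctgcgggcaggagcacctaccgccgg
In Psmb5 the capitals are TGACGTCGC, with its first base 47 bases before the start, and in Psmb6 they are TGACGGAGC, 9 bases before it. In Psmd12 they are GCTGTGTCA and CTTCCGG, the reverse complements of a TGACNNNGC and a CCGGAAG match, 247 and 17 bases before the start. The Psmd8 window held no match to any of the motifs. In Psme1 the capitals, TTTCGCTTTC, are the interferon element read on the reverse strand, 10 bases after the start, and in Psmb9 they are a CCAAT box on the reverse strand. The Psmb9 window shares 275 bases with that of Tap1, the peptide transporter gene that runs the other way. The last of these motifs, CCGGAAG, stood in 34.9% of the proteasome windows and in 8.86% of all 32851 windows, TGACNNNGC in 14% and 12.39%, and the spaced GAAA repeat in 11.6% and 3.44%. CCAAT stood in 32.6% and 37.41%, and the heat shock element TTCNNNGAA in 6.98% and 8.3%. The printed windows were not picked at random and do not show how common a motif is. Psmb5, Psmb6 and Psmd12 are among only 6 members with a TGACNNNGC match. The 5 members with the spaced GAAA repeat went different ways as deposited. Psmb3 and Psmd4 were higher, Psmd9 and Psmg4 were not called, and Psme1 was lower. A match describes letters in a window and not binding.

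The 20S core rose as a whole in the values as deposited. Its 14 tested genes changed by 0.20 to 0.97 on the log2 scale, with a median of 0.56. Their summed level was 2608, 2148, 2556 and 2366 FPKM in Med1cKO libraries 1 to 4, against 1670.2, 1695, 1528 and 1671 FPKM in WT libraries 1 to 4. No Med1cKO library reached down to the WT range. The lowest library of each group was mostly the same one: Med1cKO library 2 was the lowest of its group in 14 of 14 genes, and WT library 3, the one with thymus transcripts, the lowest of its group in 13 of 14. The highest library varied more: in Med1cKO it was library 1 in 9 genes, library 3 in 3 and library 4 in 2, and in WT library 1 in 3, library 2 in 6 and library 4 in 5. All 7 alpha ring genes and all 7 beta ring genes rose, against 44.9% of all genes. Their median log2 changes were 0.58 and 0.53, against 0.25 over all genes. After rescaling, 5 alpha ring and 4 beta ring genes rose, against 27.0% of all genes.

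Psma5, which encodes an alpha ring subunit, moved most. It read 122, 101, 127 and 112 FPKM in Med1cKO, against 61.2, 60.5, 54.6 and 57.4 FPKM in WT. The lowest Med1cKO library was well above the highest WT one, and the mean was 1.98 times that of WT (log2 change 0.97, SE 0.0868, limma adjusted p = 1.8e-05). Psma3, also of the alpha ring, read 122, 108, 126 and 128 FPKM in Med1cKO and 74.2, 76.1, 66.4 and 72.1 FPKM in WT. Psmb4, a beta ring subunit without a catalytic site, read 285, 239, 266 and 240.5 FPKM in Med1cKO and 159.7, 155, 148 and 162 FPKM in WT. Both groups were again apart in each gene, with log2 changes of 0.73 and 0.72.

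The 3 constitutive catalytic subunits rose by less. Psmb5, the chymotrypsin-like subunit, read 161, 159, 167 and 162 FPKM in Med1cKO, against 122, 116, 102 and 109.7 FPKM in WT (log2 change 0.53, SE 0.0740, limma adjusted p = 0.000239). Psmb6, the caspase-like subunit, read 186, 153, 181 and 162 FPKM in Med1cKO and 125, 126, 111 and 132 FPKM in WT. Psmb7, the trypsin-like subunit, read 287, 227, 284 and 254 FPKM in Med1cKO and 204, 199, 186 and 199 FPKM in WT, the highest mean of the core in either group. None of the 3 overlapped between the groups. Psmb6 and Psmb7 changed by 0.46 and 0.41, which passed the test as deposited. Rescaled, they changed by 0.18 and 0.13, with limma adjusted p = 0.115 and 0.221, whereas Psmb5 still rose (0.25, limma adjusted p = 0.0177).

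The smallest change was in Psmb2, a beta ring subunit without a catalytic site. It read 132, 125, 139.8 and 136 FPKM in Med1cKO, against 119, 122, 107 and 116 FPKM in WT. The groups were apart by a few FPKM (log2 change 0.20, SE 0.0710, limma adjusted p = 0.0373). The call was lost without Med1cKO library 1, 3 or 4 or WT library 1, 3 or 4 (limma adjusted p = 0.0528 to 0.108), and rescaling turned the difference to -0.08 (limma adjusted p = 0.341). Psma1, of the alpha ring, read 116, 109, 120 and 122 FPKM in Med1cKO and 92.9, 95.7, 86.1 and 97.5 FPKM in WT, a log2 change of 0.33 that rescaling reduced to 0.05. The other 6 core genes (Psmb3, Psma2, Psmb1, Psma6, Psma4 and Psma7) changed by 0.53 to 0.66. The 2 tissue-restricted core genes stayed below 1 FPKM: Psma8, the testis alpha subunit, averaged 0.611 FPKM in Med1cKO and 0.339 FPKM in WT, and Psmb11, the catalytic subunit of the thymus proteasome, was at 0 in 6 of the 8 libraries. Psmb11 read 0.0185 FPKM in Med1cKO library 2 and 0.806 FPKM in WT library 3.

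**Figure D2:**
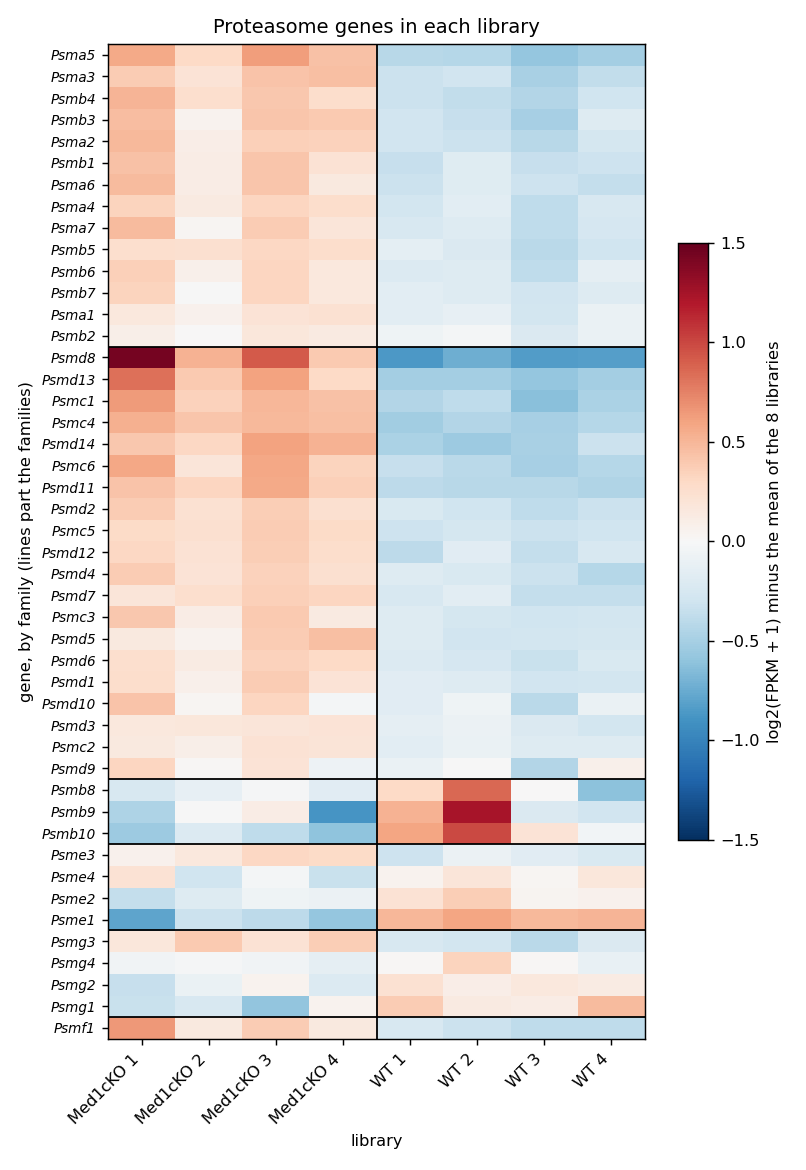
Level of each of the 46 tested proteasome genes in each of the 8 libraries, as the difference of log2(FPKM + 1) from the gene's mean over all libraries, with Med1cKO libraries left of WT libraries. Nearly all 20S and 19S genes are above their mean in Med1cKO libraries and below it in WT libraries (Psmb7, Psmd9 and Psmd10 are each crossed by at least 1 library), whereas Psme1 shows the opposite and the immunoproteasome genes are highest in WT library 2.

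The 19S regulator rose as broadly. Its 20 genes changed by 0.23 to 1.64, with a median of 0.58, and their summed level was 2178, 1794, 2089.7 and 1855 FPKM in Med1cKO, against 1185, 1198, 1117 and 1154 FPKM in WT. All 6 genes of the ATPase ring, which unfolds substrates, rose (median 0.72), as did the 3 other base subunits (0.58) and the 8 lid subunits (0.71), a division made after the values were seen. Of Psmd5, Psmd9 and Psmd10, which encode chaperones of 19S assembly and not subunits, 2 rose (median 0.37), although Psmd10 was called only at a limma adjusted p = 0.027 and lost the call without Med1cKO library 1 or 3 or WT library 1 or 3. As deposited, 44.9% of all genes rose (median 0.25). After rescaling, 5 of 6 ATPases, 2 of 3 other base subunits, 7 of 8 lid subunits and 1 of 3 chaperones rose. The share over all genes was then 27.0%, which the chaperones were near.

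Psmd8, which encodes a lid subunit, was the most changed of all 46 genes. It read 352, 187, 246 and 171 FPKM in Med1cKO, against 70.7, 77.5, 71.9 and 72.5 FPKM in WT. The WT libraries were close to one another while the Med1cKO libraries ranged widely, all far above them. The mean of 239 ± 82.1 FPKM in Med1cKO was 3.26 times the 73.2 ± 3.02 FPKM of WT (SD, n = 4 each), and limma gave a log2 change of 1.64 (SE 0.198, adjusted p = 0.000101). Rescaling left it at 1.36. Without Med1cKO library 1, the highest, it was 1.43.

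Psmd13, another lid gene, read 131, 96.8, 112 and 90.4 FPKM in Med1cKO, against 51.3, 51.3, 49.0 and 51.5 FPKM in WT (log2 change 1.05, SE 0.111, limma adjusted p = 4.6e-05). Psmc1, an ATPase of the base, read 187, 152, 169 and 162 FPKM in Med1cKO and 87.9, 91.1, 76.9 and 85.5 FPKM in WT, a log2 change of 0.96. Neither gene overlapped between the groups. Psmc4, Psmd14, Psmc6 and Psmd11 followed at 0.84 to 0.95. Psmd14 encodes the deubiquitinase that removes ubiquitin chains as the substrate enters, and it averaged 71.0 ± 6.49 FPKM in Med1cKO and 37.1 ± 2.63 FPKM in WT (SD, n = 4 each).

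At the other end, Psmd9, an assembly chaperone, was the 1 19S gene not called. It read 9.63, 7.59, 8.81 and 7.09 FPKM in Med1cKO, against 6.95, 7.44, 5.26 and 8.0 FPKM in WT, and the groups overlapped (log2 change 0.23, limma adjusted p = 0.15; -0.01 after rescaling). Psmc2, an ATPase, read 82.3, 78.9, 86.4 and 84.6 FPKM in Med1cKO and 66.6, 69.0, 64.6 and 64.8 FPKM in WT. Psmd3, a lid subunit, read 63.1, 63.3, 64.0 and 64.7 FPKM in Med1cKO and 51.0, 52.9, 48.2 and 46.3 FPKM in WT. Psmc2 and Psmd3 rose by 0.32 and 0.36 with no overlap, and after rescaling differed by 0.04 and 0.08 and were not called.

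The inducible catalytic subunits did not rise. Psmb8 read 11.5, 12.5, 13.5 and 12.1 FPKM in Med1cKO, against 17.1, 25.8, 13.8 and 8.63 FPKM in WT. Psmb9 read 5.50, 7.96, 8.70 and 3.88 FPKM in Med1cKO and 11.9, 20.2, 6.71 and 6.37 FPKM in WT. The groups overlapped in both genes, and WT library 2 held the highest value of each. In limma neither passed (Psmb8 log2 change -0.28, adjusted p = 0.373; Psmb9 -0.62, adjusted p = 0.146). Psmb8 depended on the interferon-high library: the change was -0.03 without WT library 2 and 0.02 without WT libraries 2 and 3, and without WT library 4, the lowest of WT, it was -0.53 (limma adjusted p = 0.0374). Leaving out WT library 2 moved Psmb9 to -0.32.

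Psmb10 was lower in Med1cKO. It read 17.3, 22.1, 19.5 and 16.5 FPKM in Med1cKO, against 39.1, 51.8, 29.6 and 24.8 FPKM in WT. The lowest WT library lay above the highest Med1cKO one (log2 change -0.87, SE 0.205, limma adjusted p = 0.00483), and without WT library 2 the change was -0.68 (limma adjusted p = 0.00678). The WT libraries differed much more among themselves in these genes than in the core: the median coefficient of variation was 44.1% over the 3 inducible subunits and 5.49% over the 14 core subunits in WT, and 13.3% and 9.47% in Med1cKO. The authors' deposited table had all 3 lower, at -0.67, -1.07 and -1.22 for Psmb8, Psmb9 and Psmb10.

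Set against the constitutive subunit it replaces, as a ratio of FPKM + 1 within a library, each inducible subunit was lower in Med1cKO on average. The log2 ratio of Psmb10 to Psmb7 was -3.98, -3.31, -3.80 and -3.86 in Med1cKO, against -2.36, -1.92, -2.61 and -2.96 in WT. That of Psmb8 to Psmb5 was -3.69, -3.57, -3.53 and -3.64 in Med1cKO, against -2.77, -2.13, -2.79 and -3.52 in WT, where WT library 4 came close to the Med1cKO values. With 1 added to each FPKM, neither ratio overlapped between the groups. The differences were -1.28 and -0.80 (exact two-sided permutation p = 0.0286 each, 0.0429 adjusted over the 3 pairs). In plain FPKM, the ratio of Psmb8 to Psmb5 did overlap. It was higher in Med1cKO library 3 (13.5 to 167 FPKM) than in WT library 4 (8.63 to 109.7 FPKM). The ratio of Psmb9 to Psmb6 was -4.84, -4.11, -4.23 and -5.06 in Med1cKO and -3.28, -2.59, -3.86 and -4.18 in WT, and its groups overlapped (difference -1.08, exact p = 0.0571, adjusted 0.0571). With a pseudocount of 0.1 in place of 1, the calls for Psmb8 to Psmb5 and Psmb10 to Psmb7 were lost (exact permutation, adjusted p = 0.0571 each). The groups of Psmb10 to Psmb7 stayed apart in plain FPKM, and that call was lost through the adjustment over the 3 pairs. Its highest Med1cKO ratio was 22.1 to 227 FPKM (library 2), and its lowest WT ratio was 24.8 to 199 FPKM (library 4). Without WT library 2 the difference for Psmb8 and Psmb5 was -0.58 and for Psmb10 and Psmb7 -1.10, and 4 against 3 libraries cannot give an exact p below 0.0571. A lower ratio holds the changes of both genes. Psmb5 rose by 0.53, whereas Psmb8 changed by -0.28, which was not called, and by -0.03 without WT library 2. The ratio is therefore no sign of lower Psmb8 by itself. Psmb7 rose by 0.41, and Psmb10 changed by -0.87, or by -0.68 without WT library 2. The inducible subunits supplied 5.13%, 7.3%, 6.19% and 5.33% of the summed FPKM of the 6 catalytic genes in Med1cKO, against 13.1%, 18.1%, 11.2% and 8.27% in WT. This share likewise holds the rise of the constitutive genes as deposited.

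**Figure D3:**
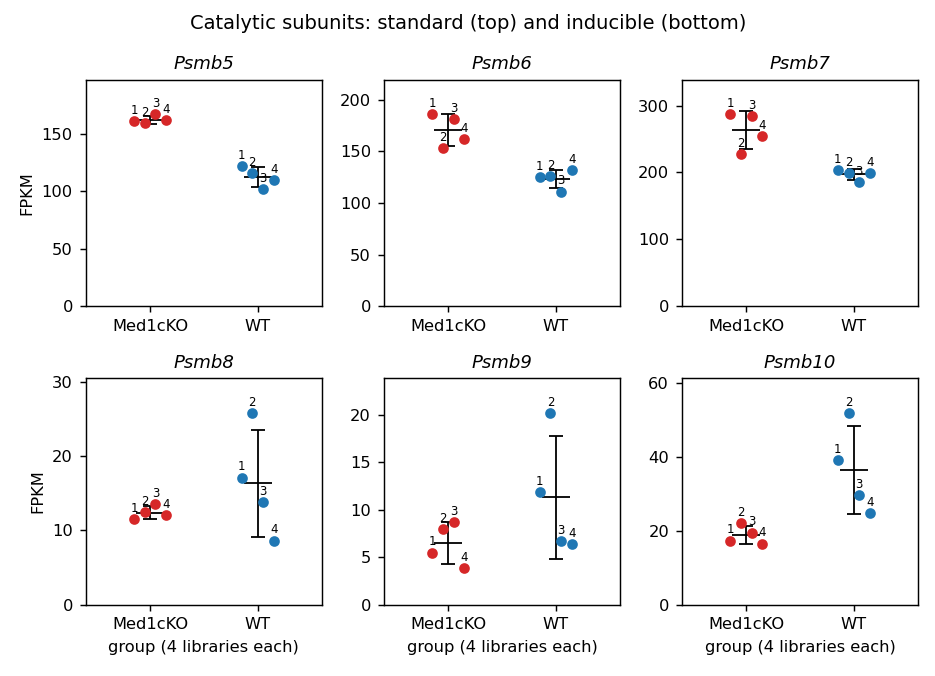
FPKM of the constitutive catalytic subunits Psmb5, Psmb6 and Psmb7 and of the inducible subunits Psmb8, Psmb9 and Psmb10 in each library, Med1cKO left of WT, with the mean and SD of 4 libraries. Points of the constitutive genes are wholly higher in Med1cKO, Psmb10 is wholly lower, and Psmb8 and Psmb9 overlap, with WT library 2 at the top.

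Of the activators, the PA28 alpha and beta genes Psme1 and Psme2, whose products form an interferon-inducible cap on the core, fell. Psme1 read 51.2, 71.0, 67.8 and 59.0 FPKM in Med1cKO, against 126, 135, 125 and 127 FPKM in WT. Every Med1cKO library was far below every WT library, and the mean was 48.5% of WT (log2 change -1.04, SE 0.104, limma adjusted p = 3.2e-05; -1.32 after rescaling and in the authors' deposited table). Leaving out any 1 library kept it between -1.11 and -0.96. Psme2 read 53.2, 60.0, 65.8 and 64.8 FPKM in Med1cKO and 80.2, 89.0, 70.9 and 72.1 FPKM in WT, a smaller fall with no overlap (log2 change -0.35, SE 0.0996, limma adjusted p = 0.0124). Without WT libraries 2 and 3 it was -0.32 and no longer passed (limma adjusted p = 0.0606).

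Psme3, which encodes the nuclear activator PA28 gamma, read 30.8, 32.9, 36.7 and 36.1 FPKM in Med1cKO, against 23.6, 27.6, 26.0 and 25.0 FPKM in WT. It rose as deposited (log2 change 0.40, limma adjusted p = 0.00214) but not after rescaling (0.13, limma adjusted p = 0.211). Psme4, which encodes the activator PA200, read 87.9, 61.3, 74.0 and 59.6 FPKM in Med1cKO and 78.4, 85.6, 77 and 85.1 FPKM in WT. Its groups overlapped through Med1cKO library 1, and it was not called as deposited (log2 change -0.22, limma adjusted p = 0.148). It was lower without Med1cKO library 1 (-0.33, limma adjusted p = 0.0151) and after rescaling (-0.50, limma adjusted p = 0.00687).

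The Psmg genes encode the chaperones PAC1 to PAC4, which assemble the alpha ring. Of the 4, 1 rose and 2 fell, against 44.9% and 16.4% of all genes. After rescaling 1 was higher and 3 lower, against 27.0% and 26.9%. Psmg1 read 11, 11.8, 8.98 and 14.6 FPKM in Med1cKO, against 18.7, 15.6, 15.3 and 20 FPKM in WT (log2 change -0.56, SE 0.142, limma adjusted p = 0.00711). Psmg2, whose product pairs with that of Psmg1, read 17.8, 21.3, 23.8 and 19.8 FPKM in Med1cKO and 27.0, 24.7, 25.6 and 25.0 FPKM in WT (log2 change -0.30, SE 0.0912, limma adjusted p = 0.0165). Both members of this pair fell with no overlap, although Psmg2 no longer passed without WT libraries 2 and 3 (-0.33, limma adjusted p = 0.0724). Psmg3 went the other way, at 10.9, 12.9, 11.3 and 12.7 FPKM in Med1cKO and 7.99, 7.76, 7.02 and 8.15 FPKM in WT (log2 change 0.57, SE 0.0817, limma adjusted p = 0.000275). Its partner Psmg4 read 16.4, 16.9, 16.4 and 15.5 FPKM in Med1cKO and 17.3, 21.7, 17.3 and 15.7 FPKM in WT, with overlap (log2 change -0.13, limma adjusted p = 0.283; -0.39 and 0.00749 after rescaling).

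Psmf1 read 12.1, 8.28, 9.90 and 8.29 FPKM in Med1cKO, against 6.07, 5.67, 5.43 and 5.40 FPKM in WT. It rose with no overlap (log2 change 0.67, SE 0.116, limma adjusted p = 0.000849; 0.42 after rescaling).

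**Figure D4:**
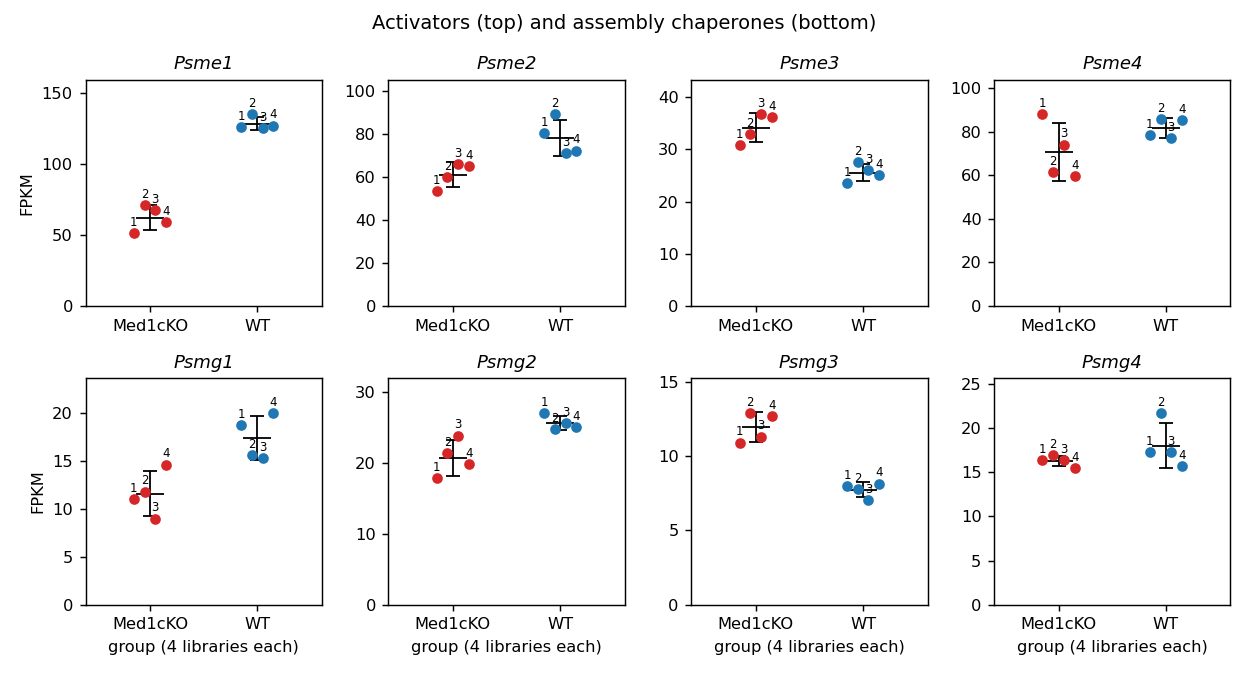
FPKM of the activators Psme1 to Psme4 and the assembly chaperones Psmg1 to Psmg4 in each library, Med1cKO left of WT, with the mean and SD of 4 libraries. Psme1, Psme2, Psmg1 and Psmg2 are wholly lower in Med1cKO, Psme3 and Psmg3 wholly higher, and Psme4 and Psmg4 overlap.

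Genes that act with the proteasome under other names were compared next. Of 15 partners, 14 were tested, of which 11 rose and 1 fell (median log2 change 0.38). Over all genes tested, 44.9% rose and 16.4% fell (median 0.25). After rescaling 6 partners rose and 2 fell, against 27.0% and 26.9% of all genes. Pomp, the maturation chaperone of the core, read 245, 174, 218 and 176 FPKM in Med1cKO, against 122, 124, 117 and 123 FPKM in WT (log2 change 0.72, SE 0.114, limma adjusted p = 0.000464). The groups were apart in every library, as they were for Adrm1, a ubiquitin receptor of the 19S base, which averaged 63.0 ± 1.89 FPKM in Med1cKO and 43.9 ± 2.43 FPKM in WT (SD, n = 4 each; log2 change 0.51). Zfand2a, a proteasome-binding protein induced by arsenite, rose by 0.93, Txnl1, a thioredoxin bound to the 19S regulator, by 0.90, Uchl5, a deubiquitinase held by Adrm1, by 0.76, and Shfm1, the small lid subunit now called Sem1, by 0.70. AI314180, the mouse gene for the proteasome adaptor Ecm29, fell by 0.23.

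The Nfe2l1 pathway, which controls proteasome genes, had 9 of 12 tested genes higher and none lower (median 0.56), against 44.9% and 16.4% of all genes. After rescaling 7 were higher and 1 lower, against 27.0% and 26.9%. Nfe2l1 itself read 280, 239, 286 and 179.9 FPKM in Med1cKO, against 116, 128, 105 and 89.6 FPKM in WT. Its mean was 2.25 times that of WT with no overlap (log2 change 1.15, SE 0.162, limma adjusted p = 0.000244; 0.87 after rescaling). Its small Maf partners rose as well: Maff by 2.12, Mafk by 1.75 and Mafg by 0.58. Nfe2l2, the related factor of the oxidative stress response, averaged 66.5 ± 4.91 FPKM in Med1cKO and 39.2 ± 5.78 FPKM in WT (SD, n = 4 each; log2 change 0.76), and Ngly1, the deglycosylase that processes the Nfe2l1 protein, rose by 0.59. All 6 of these genes also passed after rescaling. Only RNA was measured, so these counts do not give the activity of the Nfe2l1 protein. The part of these genes in the differences of the proteasome genes was not tested.

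Of 14 tested ubiquitin genes, E1 enzymes and shuttle factors, 8 rose and 2 fell (median 0.24), against 44.9% and 16.4% of all genes (median 0.25). After rescaling 5 rose and 4 fell, against 27.0% and 26.9%, so the counts of this list were near those of all genes. The polyubiquitin gene Ubb read 816, 661, 859 and 689.6 FPKM in Med1cKO, against 346, 326, 323 and 323 FPKM in WT (log2 change 1.19, SE 0.0968, limma adjusted p = 1.1e-05). Ubb is made of near-identical ubiquitin repeats that other ubiquitin genes share, so how reads were split between it and genes such as Rps27a, which rose by 0.54, is uncertain. Rad23b, a shuttle factor, rose by 0.65 and Uba1, the main ubiquitin-activating enzyme, by 0.64, whereas the shuttle factor Ubqln4 changed by -0.64.

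The muscle ubiquitin ligases were split, with 5 of 13 higher and 5 lower (median 0.11), against 44.9% and 16.4% of all genes. After rescaling 2 were higher and 6 lower, against 27.0% and 26.9%. Trim63, the sarcomere ligase MuRF1, read 56.5, 73.1, 57.4 and 50.8 FPKM in Med1cKO, against 142, 113, 125 and 125 FPKM in WT (log2 change -1.08, SE 0.118, limma adjusted p = 5.5e-05). Fbxo32, the ligase subunit atrogin-1, read 17.8, 13.1, 12.5 and 9.67 FPKM in Med1cKO and 28.4, 23.7, 24.2 and 29.3 FPKM in WT (log2 change -0.97). Both of these muscle atrophy genes were lower in every Med1cKO library than in any WT library, at 47.2% and 50.2% of the WT mean. Fbxo40, a muscle F-box gene, changed by -1.41 and Trim54, a relative of Trim63, by -0.62. Fbxo30 rose by 1.12, and Mdm2, the ligase of p53, by 0.69. Cardiomyocyte markers, which fell in the same libraries, are given above, and their part in these falls was not tested.

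Of 24 genes of MHC class I presentation and its interferon inducers, 4 rose, 3 fell and 17 were not called (median -0.13), against 44.9% higher and 16.4% lower over all genes. After rescaling 3 rose and 7 fell, against 27.0% and 26.9%, so the share that fell was near that of all genes. Without WT library 3 or WT library 4, 6 fell. The genes called lower were Ifngr2, a chain of the interferon gamma receptor (-0.83), Erap1, which trims peptides (-0.53), and the transcription factor gene Irf1 (-0.49), whose groups overlapped at a limma adjusted p = 0.0387. Ifngr1, the other chain of that receptor, rose by 0.59, and the peptide-loading chaperone genes Pdia3 and Calr rose by 0.66 and 0.60. B2m, the light chain of MHC class I, read 423, 380.2, 399 and 297 FPKM in Med1cKO, against 426, 540.3, 246 and 227 FPKM in WT (log2 change 0.14, limma adjusted p = 0.662). Tap1 read 6.72, 6.09, 5.58 and 4.39 FPKM in Med1cKO and 8.50, 15.7, 4.86 and 3.55 FPKM in WT (log2 change -0.28, limma adjusted p = 0.507). In both, WT library 2 was the highest of all 8, as it was for the inducible subunits. Macrophage and leukocyte markers, whose cells hold much immunoproteasome, summed to 301 to 531 FPKM in Med1cKO and 336 to 643 FPKM in WT, and 0 of 16 tested were called by limma (1 was lower at an unadjusted p under 0.05, and 2 fell after rescaling). Their part in the differences of the inducible subunits was not tested.

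Several of the members share exon bases with a neighbouring gene in the GENCODE annotation, and whether strand was used in counting is not stated. On the opposite strand these are Psma4, Psma5, Psmb7, Psmb8, Psmb9, Psmc3, Psmd3, Psmd13 and Psme1, with Tap1 the neighbour of Psmb9 and Emc9 that of Psme1. On the same strand they are Psmb5, Psmd1 and Psmg3. Reads of these pairs may be shared, so the levels of these genes are less certain than those of the others.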

How the data were processed

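Poly(A) RNA of 8 ventricle samples was sequenced as stranded libraries. Reads were aligned to mm10 with the BaseSpace TopHat application (version 1.0.0, per the submitters' processing notes), while Cufflinks and Cuffdiff served for assembly and testing, per the labels. No version, annotation or strand setting of that step is stated. The authors deposited a table of FPKM per gene and library (23847 rows, of which 312 were marked as too low in data and 1 as failed, and 0.001 stood for 0) and a table of Cuffdiff results with mean FPKM, a log2 fold change, a test score, a p-value and a q-value per gene. FPKM keeps no counts, and the lowest values put the depths of the libraries at 0.97 to 1.1 times that of Med1cKO library 1, so precision was taken from the spread between libraries.

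For each symbol the row of highest mean was kept. The 11974 genes that averaged 1 FPKM or more entered a limma fit (version 3.58.1, R 4.3.3) of log2(FPKM + 1) that let the variance follow the level, without covariates and with two-sided tests and Benjamini-Hochberg adjustment, called at 0.05. A fold on this scale understates the change of low genes. Catalytic ratios used an exact permutation test over the 8 libraries. Named members were the catalytic, inducible, Psme and Psmg genes and Psmf1, the 3 most and 3 least changed of the 20S core and of the 19S regulator, and up to 6 called genes by size of change from each of 5 pathway lists, plus Nfe2l1, Nfe2l2, Pomp, Adrm1, Trim63, Fbxo32, B2m and Tap1. Genes outside this rule were named after their values were seen. One gene that this rule names is not reported here. Alternatives were rescaling by median ratios, quantile normalization, a pseudocount of 0.1, a minimum of 5 FPKM, no minimum, limma with array weights, robust variances or no trend, summed rows of a symbol, a replicate block and leaving out libraries. The members and lists were chosen with earlier results of these data known. The script was tested on simulated data.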

Additional observations from a re-analysis of the deposited data

Results flagged for a closer look

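In 92 groups of 4 libraries looked at, 2 held a library far from the other 3, and chance gives about 1 in 20. Psmb1, a beta ring subunit, read 124 FPKM in WT library 2, against 111 to 113 FPKM in the other WT libraries, and 152 to 192 FPKM in Med1cKO libraries. Psmd13, a lid subunit, read 49.0 FPKM in WT library 3, against 51.3 to 51.5 FPKM in the other WT libraries, and both genes rose whichever library was left out.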

How the results depend on the processing

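Over 4 Med1cKO and 4 WT libraries, the counts of all members higher kept their direction and stayed within 1.5 times under the alternatives run. The cause of each change below was not tested. Rescaling left 9 20S genes higher, 0 activators higher, 6 partners higher and 2 lower, 1 Nfe2l1 pathway gene lower, 5 ubiquitin genes higher and 4 lower, 2 muscle ligases higher and 7 MHC class I genes lower. Quantile normalization gave 0 activators higher, 6 partners higher and 2 lower, 1 Nfe2l1 pathway gene lower, 2 muscle ligases higher and 6 MHC class I genes lower. Of all genes, 27.0% were higher and 26.9% lower after rescaling, and 28.7% and 25.6% after quantile normalization. Psmb2 turned to -0.08 with rescaling and -0.05 with quantile normalization, and Psmd9 to -0.01 with rescaling. MHC class I genes lower numbered 5 with a pseudocount of 0.1, 5 with a minimum of 5 FPKM and 2 to 6 when 1 library was left out (6 without WT library 3 or 4). Inducible subunits lower numbered 1 to 2 when 1 library was left out (2 without WT library 4, where Psmb8 was -0.53).

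Without WT libraries 2 and 3 (chosen after seeing the data), 3 members, 1 activator, 1 assembly gene and 0 partners were lower, 3 muscle ligases were higher, and Psmb8 changed by 0.02. The ratios of Psmb8 to Psmb5 and Psmb10 to Psmb7 were then -0.46 and -1.08. They were -0.82 and -1.31 with a pseudocount of 0.1, and -1.04 to -0.58 and -1.44 to -1.10 when 1 library was left out, where the adjusted exact p ran from 0.0571 to 0.0857.

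Same-numbered libraries showed no pairing (correlations of 0.14, 0.0325, -0.0409 and -0.0138 for numbers 1 to 4). With a replicate block, 34 members were higher and 5 lower, 5 MHC class I genes were lower, and the ratios were -0.80 and -1.28 at an exact p of 0.125, the smallest possible.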
